A study of Homo sapiens with 18 samples.

Results

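Heteronemin, a sesterterpenoid made by marine sponges, was set against no treatment in K562 cells on 6 two-colour Agilent arrays, 6 of the 18 in the series. The arrays were chosen by their titles, which name heteronemin-treated cells against untreated control cells. K562, an established line grown from a human chronic myelogenous leukaemia, has erythroid features and was the 1 line used. Treated cells were given 6 µM heteronemin and control cells the same volume of DMSO, and cells not meant for the cytokine TNFalpha were given water 2 h later. RNA was taken at 6 h, from cells thawed 10 days before treatment, and 700 ng was labelled per sample. The arrays form 3 biological replicates of 2 arrays each with the dyes exchanged. The 2 arrays of a replicate were averaged, so n = 3. P-values measure a spread between replicates that is pooled over the 3 comparisons of the series. A further 6 arrays are used beside them: cells given heteronemin and then 10 ng/mL TNFalpha against cells given TNFalpha alone, called cotreated cells here. All values are log2 ratios of treated over control RNA, so that 1 stands for a 2-fold higher and −1 for a 2-fold lower level. Ratios give no levels, so the globins that mark K562 cells could be followed only as ratios and genes cannot be ranked by abundance. Less RNA per cell and fewer cells that hold a transcript cannot be told apart in RNA of a whole culture.

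Several of the genes with the highest ratios belong to the integrated stress response. In this pathway, kinases that sense amino acid shortage, misfolded proteins in the endoplasmic reticulum or lack of haem phosphorylate the initiation factor eIF2. General translation then slows, while the mRNA of the transcription factor ATF4 is translated better. ATF4 pairs with C/EBP proteins on C/EBP-ATF response elements and raises genes for amino acid uptake and synthesis, for tRNA charging and, through DDIT3 (also called CHOP), for cell death.

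The 3 replicates did not spread alike. The SD over genes of the log2 ratio was 0.329 in replicate 1, 0.195 in replicate 2 and 0.163 in replicate 3. Across all 18334 genes replicates 2 and 3 correlated at 0.712, while replicate 1 correlated at 0.366 with replicate 2 and at 0.271 with replicate 3. These correlations are across genes, which are not independent replicates. The 2 dye-exchanged arrays of a replicate correlated at 0.473, 0.484 and 0.315 in replicates 1 to 3. Replicate 1 lay more than 1 above the mean of the other replicates in 176 genes (0.96% of the 18334) and more than 1 below it in 76 (0.415%). Of these genes 1 and 2 were called, in this order. The same-numbered replicate of cotreated cells showed the gap for 164 of the 176 and for 48 of the 76.

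**Figure D1:**
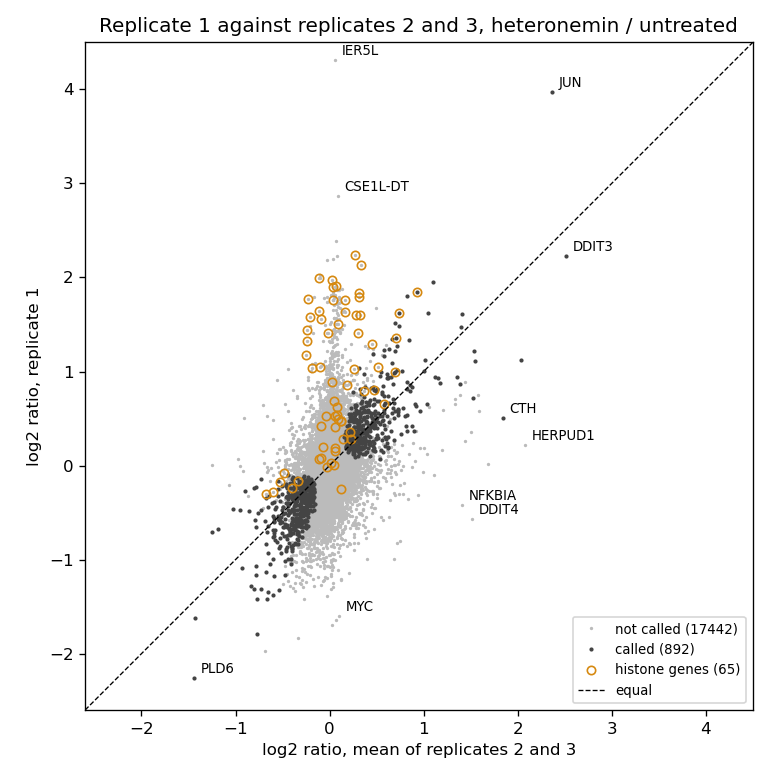
Log2 ratio in replicate 1 (y axis) against the mean of replicates 2 and 3 (x axis), 1 point per gene. Called genes are dark, the 65 histone genes are circled, and the dashed line marks equal values. IER5L at 4.31 in replicate 1 and most histone genes stand above the line, and DDIT4 and HERPUD1 below it.

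Genes were called with limma at a Benjamini-Hochberg adjusted p under 0.05 over all 18334 genes, with the spread estimated from the 9 replicate values of the 3 comparisons in the series. These 9 values are not all independent. Same-numbered replicates of the heteronemin and cotreated comparisons deviated together (r = 0.781, 0.626 and 0.622 in replicates 1 to 3), which the fit does not model. The TNFalpha comparison also had smaller SDs over genes (0.141, 0.134 and 0.135) than this one. The adjusted p-values may therefore be too small. At this rule 892 genes were called, 4.87% of those tested: 419 rose (2.29%) and 473 fell (2.58%). All 892 had the same sign in all 3 replicates, which choosing genes by the mean of these same values favours. On all 6 arrays 1163 genes were positive (6.34%) and 1363 negative (7.43%), of which 367 (2.0%) and 422 (2.3%) were called. Most changes were small: the median absolute log2 ratio of the called genes was 0.362, beside a median SD over replicates of 0.111. At least 1.5-fold changes were found in 85 genes that rose (0.464%) and 56 that fell (0.305%), and at least 2-fold changes in 22 (0.12%) and 5 (0.0273%). The called genes depended on how the spread was estimated. In limma on this comparison alone the count was 0, although 2558 genes had an unadjusted p under 0.05, against 3333 with the shared spread. It was also 0 with a trended, robust prior, with 3087 genes at that unadjusted p. Leaving out replicate 1, 2 or 3 of the comparison, 336, 163 and 434 of the 892 genes were still called, and 150 were called in each of the 3 cases. Without replicate 2 of all 3 comparisons 2 genes were called, without replicate 3 of all of them 20, and without replicate 1 of all of them 2540.

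The strongest call was DDIT3, the stress-response factor that promotes apoptosis. Its log2 ratio was 2.22, 2.70 and 2.32 in replicates 1 to 3, a mean of 2.42 ± 0.25 (SD, n = 3; adjusted p = 0.000155 in limma). All 3 replicates were more than 4-fold higher in treated cells, and the values lay close together. Among 12 transcription factors listed for the integrated stress response, 6 rose and 0 fell, where 4.87% of all genes were called. The list's median was 0.36, against 0.01 over all genes. ATF4 itself, the centre of the pathway, was at 0.55, 0.59 and 0.30 (0.48 ± 0.16, adjusted p = 0.00701). Its mRNA rose far less than that of DDIT3.

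ATF3, a repressor induced by ATF4, was at 1.13, 2.45 and 1.62 (1.73 ± 0.67, adjusted p = 0.0105). CEBPB was at 1.22, 1.62 and 1.45 (1.43 ± 0.20, adjusted p = 0.000721) and CEBPG, the C/EBP partner of ATF4, at 0.66, 1.12 and 0.96 (0.91 ± 0.24, adjusted p = 0.00451). JDP2, a bZIP repressor that dimerises with JUN and ATF proteins, was at 0.72, 1.74 and 1.31 (1.26 ± 0.51, adjusted p = 0.0115). Replicate 2 was the highest of the 3 in each of these factors. The calls of DDIT3, CEBPB and CEBPG held with any 1 replicate left out, whereas ATF4, ATF3 and JDP2 were not called without replicate 2 (log2 ratios of 0.43, 1.37 and 1.01), nor JDP2 without replicate 3.

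The effector genes of the pathway were more mixed. Of 16 measured, 4 rose and 0 fell (25.0% called, against 4.87% of all genes), with a median of 0.42. SESN2, which restrains the growth kinase complex mTORC1, was at 1.62, 1.67 and 1.15 (1.48 ± 0.29, adjusted p = 0.000721). CHAC1, an enzyme that cleaves glutathione, was at 1.11, 1.69 and 1.41 (1.40 ± 0.29, adjusted p = 0.000877), and the secreted glycoprotein STC2 at 1.13, 1.26 and 0.77 (1.05 ± 0.25, adjusted p = 0.00234). PPP1R15A, also called GADD34, which brings a phosphatase back to eIF2, was at 1.62, 1.17 and 0.92 (1.24 ± 0.35, adjusted p = 0.00705). These genes were raised at least 1.5-fold in every replicate. The calls of SESN2, CHAC1 and STC2 held with any 1 replicate left out, and that of PPP1R15A was lost without replicate 2 (1.27).

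Other known targets of the pathway did not pass. TRIB3, a pseudokinase that feeds back on ATF4, was at −0.07, 0.71 and 0.68 (adjusted p = 0.274), and the stress cytokine GDF15 at −0.13, 0.25 and 1.06 (adjusted p = 0.363). DDIT4, an inhibitor of mTORC1, was at −0.57, 1.54 and 1.498 (adjusted p = 0.395), one of the widest gaps of all genes. ASNS, asparagine synthetase, was at 0.39, 0.13 and 0.64 (adjusted p = 0.118). Without replicate 1 of all comparisons, a setting that called 2540 genes, TRIB3 and DDIT4 were called, but not GDF15 or ASNS. TRIB3 and DDIT4 were then at log2 ratios of 0.70 and 1.52 (adjusted p = 0.000156 and 1.42e-05). Without replicate 1 of this comparison alone neither TRIB3 nor DDIT4 was called (adjusted p = 0.135 and 0.111). ASNS was called with the replicate number as a block (adjusted p = 0.038). Such a block takes out spread that same-numbered replicates share, so its p-values do not measure the full spread between replicates.

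Of 14 measured amino acid synthesis genes 5 rose, 0 fell and 9 did not pass (35.7% called, median 0.14). PHGDH, the first enzyme of serine synthesis from a glycolytic intermediate, was at 0.59, 0.81 and 0.66 (0.68 ± 0.11, adjusted p = 0.00278), and its call held with any 1 replicate left out. PSAT1, the next enzyme of that route, rose by 0.52 ± 0.13 (adjusted p = 0.00964). SHMT2, the mitochondrial enzyme that turns serine into glycine, rose by 0.44 ± 0.10, and the mitochondrial folate enzyme ALDH1L2 by 0.36 ± 0.12. CTH, which makes cysteine from cystathionine, was at 0.51, 1.83 and 1.86 (1.40 ± 0.77, adjusted p = 0.0445), so replicate 1 lay well below the other values. The calls of PSAT1 and CTH were lost without replicate 2 (0.52 and 1.18) or replicate 3 (0.47 and 1.17), and those of SHMT2 and ALDH1L2 without replicate 1 (0.39 and 0.35) or replicate 2 (0.43 and 0.30).

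Of 12 amino acid transporters 4 rose, 0 fell and 8 did not pass (33.3% called, median 0.20). SLC38A2, a transporter of neutral amino acids, was at 0.84, 0.99 and 0.76 (0.86 ± 0.12, adjusted p = 0.000871), called with any 1 replicate left out. SLC7A11, which imports cystine in exchange for glutamate, was at 0.70, 1.01 and 0.34 (0.69 ± 0.34, adjusted p = 0.0198). The leucine transporters SLC43A1 and SLC7A5 rose by 0.35 ± 0.16 and 0.21 ± 0.09. These last 3 genes were not called without replicate 1 (0.68, 0.28 and 0.22) or replicate 2 (0.52, 0.34 and 0.16), nor SLC7A5 without replicate 3 (0.25). Of 18 cytosolic tRNA synthetases, which load amino acids onto tRNAs, 0 were called, with a median of 0.06. AARS1 for alanine was at 0.34 ± 0.17 (adjusted p = 0.0817) and TARS1 for threonine at 0.24 ± 0.09 (adjusted p = 0.0504). Both were called without replicate 1 of all comparisons (0.37 and 0.24, adjusted p = 0.0203 and 0.0427) and in the fit with a replicate block (adjusted p = 0.0199 and 0.0437). Neither was called without replicate 1 of this comparison alone (adjusted p = 0.187 and 0.169). Of 16 mitochondrial synthetases HARS2 for histidine rose, by 0.29 ± 0.05, and none fell (6.25% called, against 4.87% of all genes). HARS2 was not called without any 1 replicate (0.27, 0.30 and 0.32).

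**Figure D2:**
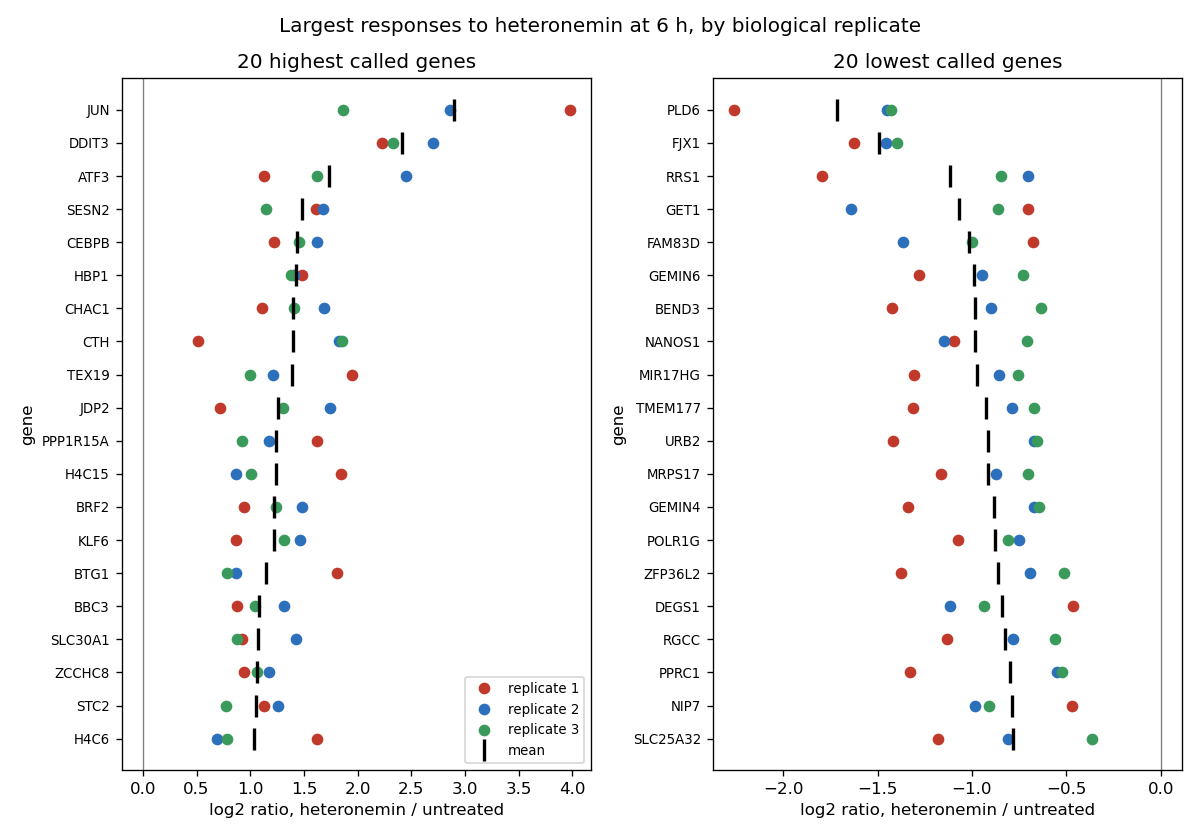
Log2 ratios of the 20 highest (left) and 20 lowest (right) called genes with the same sign on all 6 arrays. Coloured points are the 3 biological replicates and black bars their mean. DDIT3 and HBP1 show close replicates, while JUN runs from 1.86 to 3.97 and PLD6 has its lowest value, −2.26, in replicate 1.

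The promoters of the called genes were searched for 4 motifs. The search used RefSeq windows of GRCh38.p14 that run from 250 bases before to 50 bases after a gene's start. The motifs were the C/EBP-ATF element TGATGNAA, the cAMP response element TGACGTCA, the AP-1 site TGANTCA and the E-box CACGTG, read on both strands. None of the 4 motifs holds another. The C/EBP-ATF letters were found in 6 of 77 genes (7.79%) that rose at least 1.5-fold, in 1 of 42 (2.38%) that fell as much and in 3.41% of the 14410 tested genes with a promoter. The 6 genes were ATF3, C1orf54, CEBPG, CHAC1, IRAG2 and JDP2. The cAMP response letters were found in 6.49% of the higher genes against 3.18% of all tested, in GABARAPL1, HECA, ISL2, JUND and PPP1R15A. The AP-1 letters were in 9.09% against 7.99%, and the E-box letters in 16.9% against 11.2%. These shares are descriptions, and a match is not a bound site. Genes named only for a motif, such as C1orf54 at 0.66 ± 0.17 and IRAG2 at 0.72 ± 0.22, were picked after their values were seen, and both lost their calls without replicate 1 (0.56 and 0.62) or replicate 2 (0.72 and 0.70).

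Below are 4 promoters of genes that rose, to show where the letters sit. Capitals mark the C/EBP-ATF letters in CHAC1, where they lie on the opposite strand and begin 209 bases before the start, in CEBPG (42 bases before) and in JDP2 (16 bases before). In PPP1R15A they mark the cAMP response letters, 58 bases before the start. All 4 genes lie on the plus strand, at chr15:40953221-40953520, chr19:33373863-33374162, chr14:75427772-75428071 and chr19:48872171-48872470. CEBPG is 1 of 2 promoters in the table for its gene and JDP2 1 of 3.
CHAC1 promoter: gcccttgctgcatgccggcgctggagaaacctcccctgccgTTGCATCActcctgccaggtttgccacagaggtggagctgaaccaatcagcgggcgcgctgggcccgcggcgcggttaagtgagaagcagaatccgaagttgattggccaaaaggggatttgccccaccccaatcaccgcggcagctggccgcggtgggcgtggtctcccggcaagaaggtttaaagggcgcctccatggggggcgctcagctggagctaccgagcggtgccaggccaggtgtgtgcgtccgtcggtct
CEBPG promoter: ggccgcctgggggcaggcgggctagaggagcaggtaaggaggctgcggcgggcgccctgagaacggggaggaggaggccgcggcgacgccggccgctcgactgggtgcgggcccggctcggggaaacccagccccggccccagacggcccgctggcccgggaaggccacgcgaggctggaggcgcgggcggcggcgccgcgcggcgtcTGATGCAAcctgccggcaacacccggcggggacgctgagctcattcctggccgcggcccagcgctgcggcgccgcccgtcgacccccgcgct
JDP2 promoter: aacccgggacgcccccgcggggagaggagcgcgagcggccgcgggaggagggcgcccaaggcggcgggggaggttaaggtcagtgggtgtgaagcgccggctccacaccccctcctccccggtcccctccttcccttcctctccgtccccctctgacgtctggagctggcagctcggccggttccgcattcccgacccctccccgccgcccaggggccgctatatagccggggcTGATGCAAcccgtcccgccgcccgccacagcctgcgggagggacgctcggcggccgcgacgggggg
PPP1R15A promoter: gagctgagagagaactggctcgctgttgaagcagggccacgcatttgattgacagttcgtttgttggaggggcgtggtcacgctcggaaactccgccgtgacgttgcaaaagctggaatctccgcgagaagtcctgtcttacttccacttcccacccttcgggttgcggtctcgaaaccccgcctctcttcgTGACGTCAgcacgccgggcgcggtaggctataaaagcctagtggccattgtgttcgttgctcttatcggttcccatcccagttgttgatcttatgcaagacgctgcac

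AP-1 and signalling genes rose singly. JUN, the AP-1 subunit activated by the kinase JNK, had the highest ratio of all called genes, at 3.97, 2.86 and 1.86 (2.899 ± 1.06, adjusted p = 0.0341). Replicate 1 was more than 4 times as high on the linear scale as replicate 3, and the call was lost without any 1 of the replicates (2.36, 2.92 and 3.42 without replicates 1 to 3). JUND was at 1.52, 0.68 and 0.72 (0.97 ± 0.47, adjusted p = 0.0477), also lost without any 1 (0.70, 1.12 and 1.10). FOS was not called, at 0.17, 0.58 and 0.16 (adjusted p = 0.371). It passed without replicate 1 of all comparisons (0.37, adjusted p = 0.0345), but not without replicate 1 of this comparison alone (adjusted p = 0.535). KLF6, a zinc finger factor of growth control, was at 0.87, 1.47 and 1.32 (1.22 ± 0.31, adjusted p = 0.00684), lost without replicate 2 (1.09). Of 21 listed immediate-early genes JUN, JUND and KLF6 rose and 0 fell (14.3%), with a median of −0.03. Of 10 phosphatases that switch off MAP kinases, DUSP10 was at 1.00, 0.94 and 1.07 (1.00 ± 0.06, adjusted p = 0.00183) and DUSP16 at 0.65, 0.68 and 0.47 (0.60 ± 0.11, adjusted p = 0.00181). Both calls held with any 1 replicate left out, and none of the other members was called.

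Of 8 BH3-only genes, whose proteins start mitochondrial apoptosis, 3 rose and 0 fell (37.5%). BBC3, which encodes PUMA, was at 0.88, 1.31 and 1.04 (1.08 ± 0.22, adjusted p = 0.000850) and was called with any 1 replicate left out. PMAIP1, which encodes NOXA, was at 0.43, 0.89 and 0.85 (0.72 ± 0.26, adjusted p = 0.0103), and BMF at 0.83, 0.54 and 0.40 (0.59 ± 0.22, adjusted p = 0.00700). PMAIP1 was lost without replicate 2 (0.64) or 3 (0.66) and BMF without replicate 2 (0.62). Of the 10 survival genes of the BCL2 and IAP families BCL2L2 rose, by 0.25 ± 0.10, and 0 fell (10.0% called). Of 14 death receptors and caspases 14.3% were called. CASP10 rose by 0.33 ± 0.08 and TNFRSF10A, a receptor of the ligand TRAIL, fell by 0.28 on the log2 scale. Of 16 p53 targets 3 rose and 0 fell (18.8% called, against 4.87% of all genes), with a median of −0.01. TP53INP1 rose by 0.41 ± 0.06, DDB2 by 0.44 ± 0.16 and GADD45A by 0.47 ± 0.25. The activity of p53 was not measured, so these genes are not a readout of it. CDKN1A, the p53 target that encodes the cell cycle inhibitor p21, was at 0.28, 0.07 and −0.16 (adjusted p = 0.828). CASP10, TNFRSF10A, TP53INP1 and GADD45A lost their calls without replicate 2 (0.31, −0.23, 0.42 and 0.40) or replicate 3 (0.30, −0.29, 0.38 and 0.40). BCL2L2 and DDB2 lost theirs without any 1 replicate (0.30, 0.20 and 0.25 for BCL2L2, 0.36, 0.52 and 0.46 for DDB2), and BCL2L2 also with the replicate number as a block (adjusted p = 0.0547).

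Of 22 FOXO targets and growth arrest genes 7 rose, 1 fell and 14 did not pass (36.4% called, median 0.20). HBP1, a repressor of cell cycle genes, was at 1.48, 1.40 and 1.38 (1.42 ± 0.05, adjusted p = 0.000356), the smallest spread among the 20 highest genes. CCNG2, an unusual cyclin that accompanies arrest, was at 1.22, 0.68 and 0.72 (0.87 ± 0.30, adjusted p = 0.00463). Both calls held with any 1 replicate left out. BTG1, an antiproliferative partner of the mRNA deadenylase complex, was at 1.81, 0.86 and 0.78 (1.15 ± 0.57, adjusted p = 0.0320), and lost its call without any 1 replicate (0.82, 1.29 and 1.34). The others that rose were KLF6, IRS2 (0.36 ± 0.12), CITED2 (0.25 ± 0.06) and FOXO3, which was picked after its value was seen (0.39 ± 0.16), and TRIB1 was the member that fell, to −0.27 ± 0.11. IRS2, CITED2, FOXO3 and TRIB1 lost their calls without any 1 replicate (without replicates 1 to 3, IRS2 at 0.32, 0.34 and 0.43, CITED2 at 0.28, 0.24 and 0.23, FOXO3 at 0.42, 0.29 and 0.44 and TRIB1 at −0.20, −0.29 and −0.31), and KLF6 without replicate 2 (1.09). With the replicate number as a block CITED2 was not called (adjusted p = 0.052). Of 35 KLHL genes 1 rose and 2 fell (8.57% called, against 4.87% of all genes). KLHL24, a substrate adaptor of the ubiquitin ligase CUL3, was at 1.33, 0.94 and 0.74 (1.01 ± 0.30, adjusted p = 0.00373), called with any 1 replicate left out, and KLHL18 and KLHL8 were at −0.27 ± 0.10 and −0.32 ± 0.14, both lost without replicate 1 (−0.22 and −0.25) or replicate 2 (−0.30 and −0.39), and KLHL8 also without replicate 3 (−0.31).

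Among regulators of chromatin and transcription, 3 of 17 listed repressors and demethylases rose and 0 fell (17.6% called, against 4.87% of all genes). KDM6A, which removes methyl groups from histone H3 lysine 27, was at 0.58, 0.67 and 0.73 (0.66 ± 0.08, adjusted p = 0.00208) and was called with any 1 replicate left out. KDM3A and KDM2A rose by 0.45 ± 0.19 and 0.43 ± 0.32, and both calls were lost without replicate 1 (0.34 and 0.25) or 2 (0.49 for each). Of the 11 genes of the MYC network MXD1, which competes with MYC for its partner MAX, rose by 0.49 ± 0.15 (adjusted p = 0.0330). It was not called without any 1 replicate (0.42, 0.49 and 0.57) or with the replicate number as a block (adjusted p = 0.0524). MYC was at −1.60, 0.06 and 0.14 (adjusted p = 0.628), low in replicate 1 and near 0 in the others. ZCCHC8, a subunit of the complex that targets nuclear RNA to the exosome, was at 0.94, 1.17 and 1.07 (1.06 ± 0.11, adjusted p = 0.000721). BRF2, an initiation factor of RNA polymerase III, was at 0.94, 1.48 and 1.24 (1.22 ± 0.27, adjusted p = 0.00362).

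Genes that make ribosomes were mostly below 0. Of 38 ribosome biogenesis genes 34 had a negative mean, 4 fell and 1 rose (13.2% called), with a median of −0.19 against 0.01 over all genes. The median was −0.34 in replicate 1 and −0.10 and −0.13 in replicates 2 and 3. RRS1, an assembly factor of the large subunit, was at −1.79, −0.70 and −0.84 (−1.11 ± 0.59, adjusted p = 0.0336). NIP7, which matures rRNA of the large subunit, was at −0.47, −0.98 and −0.91 (−0.79 ± 0.28, adjusted p = 0.00403). UTP20 and MRTO4 fell to −0.32 ± 0.05 and −0.39 ± 0.18. TAF1D, a subunit of the initiation factor SL1 for RNA polymerase I, rose by 0.82 ± 0.16 (adjusted p = 0.00251). NIP7 and TAF1D were called with any 1 replicate left out, and RRS1, UTP20 and MRTO4 were lost without any 1 (RRS1 at −0.77, −1.32 and −1.25, UTP20 at −0.29, −0.34 and −0.32, MRTO4 at −0.29, −0.46 and −0.43). URB2, a further nucleolar factor, was at −1.42, −0.67 and −0.65 (−0.92 ± 0.44, adjusted p = 0.0216), not called without any 1 replicate (−0.66, −1.04 and −1.05). Of the 77 cytosolic ribosomal protein genes, by contrast, 1 fell and 0 rose (1.3% called, below the 4.87% of all genes), with a median of 0.06. The 1 was RPL39L, a paralog of RPL39, at −0.42 ± 0.19, lost without any 1 replicate (−0.31, −0.47 and −0.48).

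RNA polymerase subunits fell as single genes in all 3 enzymes. Of 32 measured subunits 7 fell and 0 rose (21.9%), with a median of −0.12. POLR1G, a subunit of RNA polymerase I, was at −1.07, −0.75 and −0.81 (−0.88 ± 0.17, adjusted p = 0.000721), and POLR2K, shared by the 3 polymerases, at −0.77, −0.57 and −0.49 (−0.61 ± 0.15, adjusted p = 0.00149). Both calls held with any 1 replicate left out. POLR2I fell to −0.29 ± 0.09, POLR2L to −0.30 ± 0.02 and POLR3G, of RNA polymerase III, to −0.37 ± 0.14. The other members that fell were POLR1H and POLR1F, named here because the count is small. POLR2I, POLR3G and POLR1H lost their calls without replicate 1 (−0.25, −0.32 and −0.23) or 2 (−0.28, −0.34 and −0.28), and POLR2L and POLR1F without any 1 (−0.31, −0.29 and −0.30, and −0.24, −0.46 and −0.38). Of 10 exosome subunits, which degrade and trim RNA, EXOSC7 and EXOSC4 fell to −0.35 ± 0.11 and −0.62 ± 0.37, and 0 rose. Of the SMN complex, which assembles spliceosomal particles, GEMIN6 was at −1.28, −0.95 and −0.73 (−0.99 ± 0.28, adjusted p = 0.00183) and GEMIN4 at −1.34, −0.67 and −0.64 (−0.88 ± 0.40, adjusted p = 0.0107). Without replicate 2 the calls of EXOSC7 (−0.30) and GEMIN4 (−0.99) were lost, and that of EXOSC4 without any 1 replicate (−0.41, −0.75 and −0.71).

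Genes of most mitochondrial families listed were mostly below 0 as well. The mitochondrial tRNA synthetases were mixed, with 7 of 16 means above 0, 1 called higher and 0 lower. Of 76 mitochondrial ribosomal protein genes 65 had a mean below 0, 14 fell and 1 rose (19.7% called, against 4.87% of all genes). The median was −0.17 over the means, and −0.26, −0.16 and −0.05 in replicates 1 to 3. MRPS17 was at −1.17, −0.87 and −0.70 (−0.91 ± 0.24, adjusted p = 0.000877). MRPL11 was at −0.31, −0.33 and −0.32 (−0.32 ± 0.01, adjusted p = 0.00343), a small change of nearly the same size in each replicate. MRPL13, MRPL36 and MRPL24 fell to −0.42 ± 0.08, −0.49 ± 0.19 and −0.42 ± 0.14. MRPL10, the 1 member that rose, was at 0.20 ± 0.04 (adjusted p = 0.0370). MRPS17 and MRPL11 were called with any 1 replicate left out, and MRPL13, MRPL36 and MRPL24 were not called without replicate 2 (−0.40, −0.49 and −0.42), nor MRPL24 without replicate 1 (−0.35). MRPL10 was not called without any 1 replicate (0.18, 0.22 and 0.20) or with the replicate number as a block (adjusted p = 0.064).

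Of 43 genes of complex I of the respiratory chain, subunits and assembly factors together, 34 were below 0, 7 fell and 0 rose (16.3%, median −0.16). NDUFB3 was at −0.59, −0.50 and −0.28 (−0.46 ± 0.16, adjusted p = 0.00445), and NDUFA12 fell to −0.31 ± 0.12. Of 24 genes of the import machinery of the outer and inner membrane 4 fell and 0 rose (16.7%, median −0.14). TIMM21 was at −0.24, −1.002 and −0.60 (−0.61 ± 0.38, adjusted p = 0.0318) and TIMM8A at −0.85, −0.49 and −0.28 (−0.54 ± 0.28, adjusted p = 0.0181), and TIMM10 and TOMM6 fell to −0.46 ± 0.25 and −0.45 ± 0.27. Of 43 SLC25 carriers of the inner membrane 4 fell and 0 rose (9.30%, median −0.06). SLC25A32, the folate carrier, was at −1.18, −0.81 and −0.37 (−0.78 ± 0.41, adjusted p = 0.0245). SLC25A4, which exchanges ADP and ATP, was at −0.32, −0.31 and −0.28 (−0.30 ± 0.02, adjusted p = 0.00834), and SLC25A15 and SLC25A44 fell to −0.38 ± 0.09 and −0.34 ± 0.01. NDUFB3 was the member of these families named here whose call held with any 1 replicate left out. Without replicate 2 the calls of all the others were lost (NDUFA12 at −0.32, TIMM21 −0.42, TIMM8A −0.56, TIMM10 −0.45, TOMM6 −0.55, SLC25A32 −0.77, SLC25A4 −0.30, SLC25A15 −0.35 and SLC25A44 −0.34). Without replicate 1 those of TIMM8A (−0.39), TIMM10 (−0.34), TOMM6 (−0.30) and SLC25A32 (−0.59) were lost, and without replicate 3 those of TIMM21 (−0.62) and TOMM6 (−0.51).

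Single mitochondrial genes fell further. PLD6, a lipid-cleaving protein of the outer mitochondrial membrane, was the lowest of all genes at −2.26, −1.45 and −1.43 (−1.71 ± 0.47, adjusted p = 0.00258). TMEM177, which helps assemble cytochrome oxidase, was at −1.31, −0.79 and −0.67 (−0.92 ± 0.34, adjusted p = 0.00530). PPRC1, a coactivator of mitochondrial biogenesis, was at −1.33, −0.55 and −0.52 (−0.80 ± 0.46, adjusted p = 0.0293). TRMT10C, a subunit of mitochondrial RNase P, was at −0.93, −0.58 and −0.45 (−0.65 ± 0.25, adjusted p = 0.00984). NSUN3, a methyltransferase of a mitochondrial tRNA, went the other way at 0.38, 0.33 and 0.44 (0.38 ± 0.05, adjusted p = 0.00368). PLD6, TMEM177 and NSUN3 were called with any 1 replicate left out, TRMT10C was lost without replicate 2 (−0.69) and PPRC1 without any 1 (−0.54, −0.93 and −0.94).

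**Figure D3:**
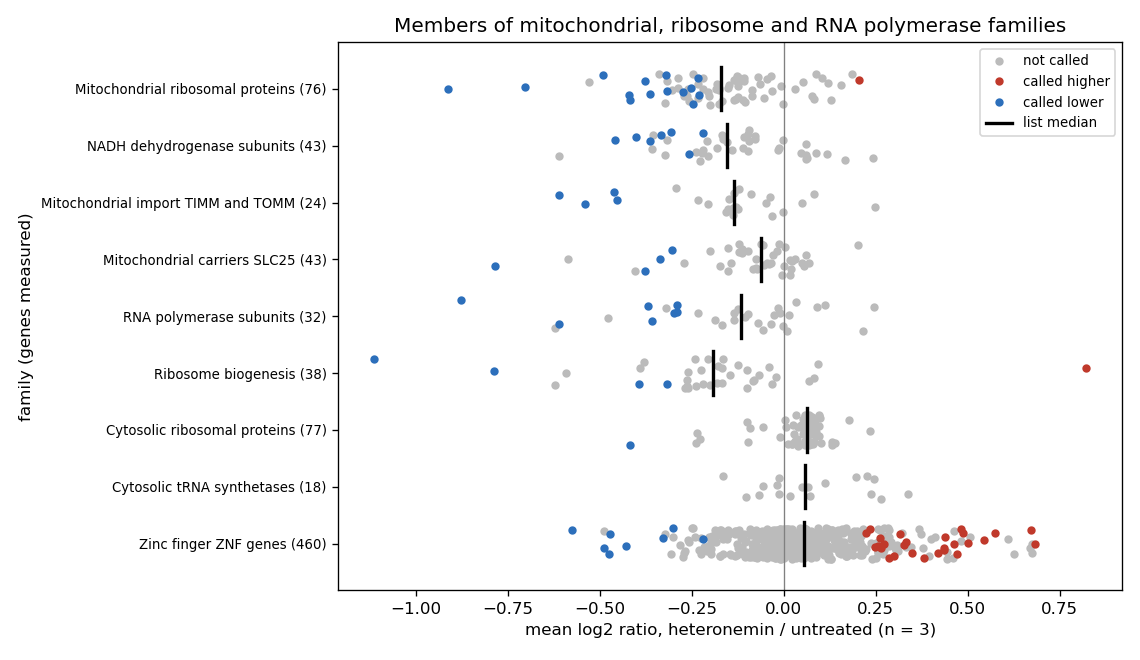
Mean log2 ratio (n = 3) of each member of 9 gene families, 1 point per gene, with called genes in colour and the list median as a black bar. Mitochondrial families and RNA polymerase subunits have their called members below 0, except MRPL10 at 0.20, while called ZNF genes lie mostly above 0.

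Among other genes that fell, FJX1, the human four-jointed gene, was at −1.63, −1.45 and −1.40 (−1.49 ± 0.12, adjusted p = 0.000356). GET1, which inserts tail-anchored proteins into the endoplasmic reticulum, was at −0.70, −1.64 and −0.86 (−1.07 ± 0.50, adjusted p = 0.0198). FAM83D, which anchors a kinase at the mitotic spindle, was at −0.68, −1.37 and −0.998 (−1.01 ± 0.34, adjusted p = 0.00463). These 3 genes were lower in every replicate, and GET1 lost its call without replicate 2 (−0.78) or 3 (−1.17). The RNA-binding repressor NANOS1 fell to −0.98 ± 0.24, DEGS1, which makes ceramide, to −0.84 ± 0.34, and RGCC, a regulator of the cell cycle, to −0.83 ± 0.29. Of 10 polyamine genes the synthesis enzymes AMD1 and SRM fell, to −0.64 ± 0.18 and −0.34 ± 0.10, and 0 rose. SAT1, which acetylates polyamines for export, was at 0.13, 0.82 and 0.86 (adjusted p = 0.108), and was called with the replicate number as a block (adjusted p = 0.0117). SRM lost its call without replicate 1 (−0.31) or replicate 2 (−0.32).

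Of 51 translation initiation factor genes 1 rose and 2 fell (5.88% called, near the 4.87% of all genes). EIF4A2, an RNA helicase, rose at 0.55, 0.56 and 0.61 (0.57 ± 0.03, adjusted p = 0.00413). EIF4E2 and EIF4E, which bind the mRNA cap, fell to −0.52 ± 0.18 and −0.31 ± 0.10. Of 26 splicing regulators 15.4% were called. The kinases CLK1, CLK3 and CLK4 rose by 0.46 ± 0.24, 0.29 ± 0.03 and 0.27 ± 0.08, and SRSF1 fell to −0.38 ± 0.13. Of 21 genes of RNA decay and stability 3 rose and 3 fell (28.6% called, against 4.87% of all genes). The decapping genes DCP1A and DCP2 rose by 0.39 ± 0.16 and 0.19 ± 0.02 and SMG5, of nonsense-mediated decay, by 0.28 ± 0.12. ZFP36L2, which destabilises AU-rich mRNAs, was at −1.38, −0.69 and −0.51 (−0.86 ± 0.46, adjusted p = 0.0133). EXOSC4 and ELAVL1 were the other members that fell, ELAVL1 named because the count is small. Of these genes EIF4A2 and EIF4E2 were called with any 1 replicate left out. EIF4E, DCP2, EXOSC4 and ELAVL1 were lost without any 1, SRSF1 and SMG5 without replicate 1 (−0.39 and 0.28) or 2 (−0.31 and 0.22), CLK3, CLK4 and DCP1A without replicate 2 (0.30, 0.27 and 0.31) or 3 (0.27, 0.24 and 0.41), CLK1 without replicate 1 (0.35) or 3 (0.45), and ZFP36L2 without replicate 2 (−0.94). Without replicates 1 to 3 EIF4E was at −0.27, −0.30 and −0.37, DCP2 at 0.18, 0.20 and 0.20, EXOSC4 at −0.41, −0.75 and −0.71 and ELAVL1 at −0.32, −0.41 and −0.49.

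Of 36 host genes of small nucleolar RNAs and microRNAs 5 rose and 1 fell (16.7%), with a median of −0.02, which was 0.00273 with arrays scaled to equal spread. GAS5, whose spliced transcript is known to be degraded by nonsense-mediated decay, was at 0.89, 0.83 and 0.81 (0.84 ± 0.04, adjusted p = 0.00683). SNHG12 was at 1.01, 0.65 and 0.89 (0.85 ± 0.18, adjusted p = 0.00186), and SNHG1 and MIR503HG rose by 0.50 ± 0.19 and 0.38 ± 0.08. MIR17HG, the host transcript of the miR-17-92 cluster, was the 1 that fell, at −1.31, −0.86 and −0.76 (−0.97 ± 0.29, adjusted p = 0.00149). SNHG12 and MIR17HG were called with any 1 replicate left out, while GAS5 was lost without replicate 2 (0.85). SNHG1 and MIR503HG were lost without any 1 replicate (0.48, 0.61 and 0.42, and 0.35, 0.43 and 0.35).

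MIR17HG spans 6891 bases at chr13:91347687-91354577 in GRCh38.p14. The arrays measured the host transcript and not the mature microRNAs cut from it. These are given, in the order of their shared seeds (bases 2 to 8, in capitals), to show which families the transcript carries; miR-17-5p and miR-20a-5p share 1 seed, and miR-19a-3p and miR-19b-3p another. The sequences are RefSeq's.
hsa-miR-17-5p: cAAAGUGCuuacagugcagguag
hsa-miR-20a-5p: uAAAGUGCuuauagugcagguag
hsa-miR-18a-5p: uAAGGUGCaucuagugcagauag
hsa-miR-19a-3p: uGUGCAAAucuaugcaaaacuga
hsa-miR-19b-3p: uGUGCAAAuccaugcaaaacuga
hsa-miR-92a-3p: uAUUGCACuugucccggccugu

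Outside the integrated stress response, 9.52% of listed heat shock genes were called, against 4.87% of all genes. The shares were 4.55% for endoplasmic reticulum chaperone and disposal genes and 4.76% for NRF2 genes, near that of all genes. Of 21 heat shock genes 2 rose and 0 fell: DNAJB4 was at 1.19, 0.53 and 0.40 (0.71 ± 0.42, adjusted p = 0.0181), and HSPH1 rose by 0.31 ± 0.09. HSPA1A, the inducible HSP70 gene, was at 0.91, −0.36 and −0.75 (adjusted p = 0.942), with replicate 1 opposite to the others. It was called lower without replicate 1 of all comparisons (−0.56, adjusted p = 0.0126), but not without replicate 1 of this comparison alone (adjusted p = 0.544). Of 22 genes of chaperones and protein disposal in the endoplasmic reticulum 1 rose, DNAJB9, at 0.59, 1.11 and 0.82 (0.84 ± 0.26, adjusted p = 0.0117). DNAJB4 lost its call without replicate 2 (0.80), DNAJB9 without replicate 2 (0.70) or 3 (0.85), and HSPH1 without any 1 replicate (0.26, 0.35 and 0.32). HSPA5, the main chaperone there and a usual marker of the unfolded protein response, was at −0.30, −0.05 and −0.03 (adjusted p = 0.571). HERPUD1, a membrane protein of the disposal route, was at 0.22, 2.32 and 1.84 (adjusted p = 0.105), and was called without replicate 1 of this comparison (2.08, adjusted p = 0.0486) and in the fit with a replicate block (adjusted p = 0.0321). Of 21 antioxidant genes driven by NRF2 the cystine importer SLC7A11 was the 1 called, and not without replicate 1 (0.68) or 2 (0.52). HMOX1, haem oxygenase, was at −0.32, 0.02 and 0.02 (adjusted p = 0.586), and SRXN1 at −0.81, −0.33 and −0.28 (adjusted p = 0.158). SRXN1 was called lower without replicate 1 of all comparisons (−0.30, adjusted p = 0.00289), but not without replicate 1 of this comparison alone (adjusted p = 0.606).

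Of 43 proteasome subunits 2 fell and 0 rose (4.65% called, near the 4.87% of all genes). PSMA3 fell to −0.38 ± 0.07 and PSMB10 to −0.28 ± 0.08, and both calls were lost without any 1 replicate (−0.41, −0.34 and −0.40, and −0.30, −0.23 and −0.30). The list's median was −0.00457, and 0.02 with arrays scaled to equal spread. Of 25 ubiquitin-conjugating enzymes 1 rose and 1 fell (8.0% called), with 4 means above 0 and a median of −0.10. UBE2H was at 0.81, 0.56 and 0.46 (0.61 ± 0.18, adjusted p = 0.00403), called with any 1 replicate left out, and UBE2G2 was at −0.21, −0.25 and −0.27 (−0.24 ± 0.03, adjusted p = 0.0153), lost without any 1 (−0.26, −0.24 and −0.23). Of 49 ubiquitin-specific proteases 1 rose and 2 fell (6.12% called, near the 4.87% of all genes). USP35 rose by 0.38 ± 0.18, and USP7 and USP31 fell to −0.36 ± 0.12 and −0.36 ± 0.20. USP7 and USP31 were lost without replicate 1 (−0.30 and −0.25) or 2 (−0.35 and −0.39), and USP35 without replicate 2 (0.29) or 3 (0.36). Of 19 autophagy and lysosome genes 2 rose and 0 fell (10.5% called). GABARAPL1, which is joined to autophagosome membranes, was at 0.93, 0.82 and 0.41 (0.72 ± 0.27, adjusted p = 0.00414), and the initiating kinase ULK1 at 0.29, 0.69 and 0.51 (0.50 ± 0.20, adjusted p = 0.0171). GABARAPL1 was called with any 1 replicate left out, and ULK1 was lost without replicate 2 (0.40) or 3 (0.49).

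Metallothioneins, which bind zinc and copper, differed most between replicates of the 70 lists by their median. The median of the 12 metallothionein and zinc response genes was 0.61, 1.87 and 0.44 in replicates 1 to 3. SLC30A1, the zinc exporter of the plasma membrane, was at 0.93, 1.42 and 0.87 (1.08 ± 0.30, adjusted p = 0.0252), and the zinc importer SLC39A10 fell to −0.43 ± 0.14. Both calls were lost without replicate 1 (1.15 and −0.36) or replicate 2 (0.90 and −0.42), and that of SLC30A1 also without replicate 3 (1.18). MT1F was at 0.89, 2.00 and 0.87 (adjusted p = 0.0601) and MT2A at 0.75, 2.46 and 0.70 (adjusted p = 0.143), positive throughout but more than 2-fold higher in replicate 2. Metallothionein sequences are near copies of each other, so their features may share signal. With the replicate number as a block MT1F and MT2A were called (adjusted p = 0.027 and 0.0481). That fit takes out spread shared by same-numbered replicates, so these p-values do not measure the full spread given above.

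**Figure D4:**
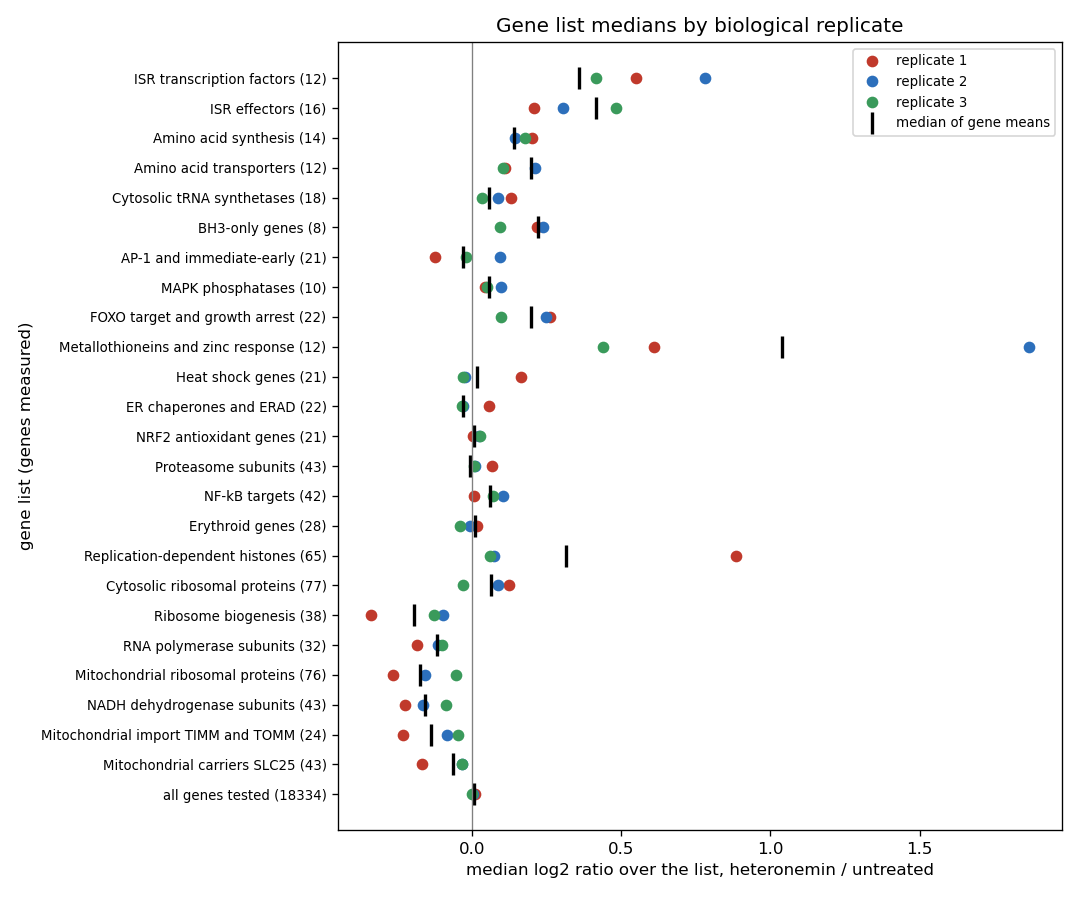
Median log2 ratio of 24 gene lists and of all genes in each replicate (coloured points), and the median of the gene means (black bars). Integrated stress response factors and effectors lie to the right of 0 and mitochondrial and ribosome biogenesis lists to the left in all 3 replicates, while histone genes are high in replicate 1 and metallothionein and zinc genes in replicate 2.

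Cell cycle genes changed little as lists. Of 34 genes of G1/S and replication 2.94% were called, below the 4.87% of all genes. The sliding clamp PCNA fell, to −0.38 ± 0.14, and 0 rose, with a list median of −0.04. Of 29 genes of G2/M and mitosis CDC25C, a phosphatase that starts mitosis, rose by 0.53 ± 0.11 and FAM83D fell (6.9% called). Of 7 inhibitors of cyclin-dependent kinases CDKN3 fell to −0.20 ± 0.09 and 0 rose (14.3% called). CDKN1B, which encodes p27, was at 0.16, 0.86 and 0.51 (adjusted p = 0.0629). It was called without replicate 1 of this comparison (adjusted p = 0.0424) and in the fit with a replicate block (adjusted p = 0.0465). The calls of PCNA and CDKN3 were lost without replicate 1 (−0.36 and −0.20) or replicate 2 (−0.31 and −0.15), and that of CDKN3 also without replicate 3 (−0.24), while CDC25C and FAM83D were called in each case.

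Of 65 replication-dependent histone genes 6 rose and 0 fell (9.23%), with a median of 0.88 in replicate 1 against 0.08 and 0.06 in replicates 2 and 3. H4C15 was at 1.84, 0.87 and 1.00 (1.24 ± 0.53, adjusted p = 0.0254) and H4C6 at 1.62, 0.69 and 0.79 (1.03 ± 0.51, adjusted p = 0.0376). H4C1 was at 2.00, −0.07 and −0.16 (adjusted p = 0.586). Of the 176 genes more than 1 above in replicate 1, 25 were histone genes. The H4 genes encode 1 protein and are near copies, so reads of single members are uncertain, and all 6 calls were lost without replicate 1 or 3 (H4C15 at 0.93 and 1.35, H4C6 at 0.74 and 1.16), and 5 of them also without replicate 2 (H4C15 at 1.42, H4C6 at 1.21).

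Genes of inflammation and of the cell's identity served as further lists. Of 42 NF-kB targets TNFAIP8 rose, by 0.42 ± 0.06 (adjusted p = 0.0239), and 0 fell (2.38% called, median 0.06). NFKBIA, the inhibitor that NF-kB itself induces, was at −0.42, 1.45 and 1.37 (adjusted p = 0.252), and was called without replicate 1 of this comparison (1.41, adjusted p = 0.0223). CXCL8 was at 0.07, 0.74 and 0.62 (adjusted p = 0.689) and TNF at −0.02, 0.03 and −0.03 (adjusted p = 0.982). CXCL8 was called without replicate 1 of all comparisons (0.68, adjusted p = 0.0127), but not without replicate 1 of this comparison alone (adjusted p = 0.88). Of 28 erythroid genes 0 were called, with a median of 0.01: GATA1, the main erythroid factor, was at 0.07, 0.12 and 0.12 (adjusted p = 0.250), HBG1, a fetal globin, at −0.03, 0.11 and −0.04 (adjusted p = 0.982) and TFRC, the transferrin receptor, at −0.61, 0.02 and −0.13 (adjusted p = 0.365). Near-identical fetal globin genes may share features. Of 11 lymphoid markers CD3D fell to −0.37 ± 0.07, and of 14 monocyte and granulocyte markers 0 were called. None of 10 reference genes was called, with GAPDH at 0.07 ± 0.09. TNFAIP8 lost its call without any 1 replicate (0.40, 0.46 and 0.41) and CD3D without replicate 2 (−0.34).

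Zinc finger genes were the largest family tested. Of 460 ZNF genes 28 rose and 8 fell (7.83% called), with 296 means above 0 and a median of 0.06, which was −0.01, 0.09 and 0.06 in replicates 1 to 3. ZNF92 was at 0.60, 0.70 and 0.75 (0.68 ± 0.08, adjusted p = 0.00471) and ZNF182 at 0.46, 0.54 and 0.50 (0.50 ± 0.04, adjusted p = 0.000721). ZNF696 fell, at −0.55, −0.50 and −0.67 (−0.58 ± 0.09, adjusted p = 0.000721). Many ZNF genes are close copies, so signal may be shared between them.

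Some called genes had nearly the same ratio in every replicate. Among called genes with an absolute mean of at least 0.5, TRIAP1, an inhibitor of apoptosis induced by p53, had the smallest spread, at −0.55, −0.54 and −0.54 (−0.54 ± 0.01, adjusted p = 0.000721). PRNP, which encodes the prion protein, was at −0.65, −0.66 and −0.65 (−0.65 ± 0.01, adjusted p = 0.00373), and ENC1, an actin-binding BTB protein, at −0.51, −0.50 and −0.49 (−0.50 ± 0.01, adjusted p = 0.00113). The splicing factor SLU7 was at 0.53, 0.55 and 0.52 (0.53 ± 0.02, adjusted p = 0.000802). A small spread was part of how these genes were chosen, so it is given as a description.

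At the other end, IER5L was at 4.31, 0.08 and 0.03 (adjusted p = 0.494), the widest gap of all genes between replicate 1 and the others. CSE1L-DT was at 2.87, 0.24 and −0.06, GPR78 at 2.39, 0.29 and −0.15, and C2CD4A at 2.19, 0.16 and −0.21. None of these was called, and in cotreated cells replicate 1 was again the one apart, with IER5L at 4.54, 0.02 and −0.03. XBP1, EGR1 and DUSP2, picked after their values were seen, went the other way. XBP1, a factor of the unfolded protein response, was at −0.80, 0.97 and 0.54, the immediate-early factor EGR1 at −1.70, 0.23 and −0.18 and DUSP2 at −1.64, 0.11 and 0.03. XBP1, but not EGR1 or DUSP2, was called higher without replicate 1 of all comparisons (0.75, adjusted p = 0.00745). Without replicate 1 of this comparison alone XBP1 was not called (adjusted p = 0.48).

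The compound's effect was also measured in the presence of TNFalpha, with other treated and other control RNA. Same-numbered replicates of both comparisons deviated together, however (r = 0.781, 0.626 and 0.622 in replicates 1 to 3), so they are not independent of each other. In cotreated cells 1200 genes were called (6.55%), 622 higher (3.39%) and 578 lower (3.15%). Both sets of calls come from 1 fit and use the same spread for each gene, so a gene with a small spread passes more easily in both. Of the 419 genes that rose without the cytokine 343 also rose with it, 81.9% of the 419 and 55.1% of the 622. Of the 473 that fell 343 also fell, 72.5% of the 473 and 59.3% of the 578, and 0 genes were called in opposite directions. DDIT3 stood at 2.36 ± 0.30 in cotreated cells, HBP1 at 1.45 ± 0.25, PLD6 at −1.55 ± 0.44 and FJX1 at −1.54 ± 0.21, each within 0.2 of its value without the cytokine.

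The difference between both effects was tested for every gene, as the ratio with TNFalpha minus the ratio without it. At an adjusted p under 0.05, limma called 0 of 18334 genes (0.0%), while 475 had an unadjusted p under that value. This fit did not pair same-numbered replicates, although they deviated together. A limma fit that pairs both heteronemin comparisons by a replicate block, chosen after the data were seen, also called 0 genes. There BCL3 had the smallest p (difference −1.13, adjusted p = 0.0925). KREMEN2, a receptor for Dickkopf proteins, and IER3 came next (−0.82 and −0.99, adjusted p = 0.487 each). In the unpaired fit the smallest p in the negative direction was that of the long noncoding RNA LINC00326. It stood at 0.31 ± 0.09 without and −0.07 ± 0.10 with TNFalpha. Its ratio without TNFalpha changed sign with the treated RNA in Cy5 alone, which the SD over averaged dye pairs does not show. KREMEN2 followed in that fit with −0.08 ± 0.06 and −0.90 ± 0.25. In the positive direction the pseudogene ABCA11P was at −0.66 ± 0.72 and 0.88 ± 0.55, and LINC01842 at −0.08 ± 0.04 and 0.22 ± 0.12. Without replicate 1 of all comparisons 3 genes were called, all NF-kB targets or immune genes with a lower ratio in the presence of the cytokine: the activation antigen CD69 (difference −1.48, adjusted p = 0.00941), IER3 (−1.17) and NFKBIA (−1.38, adjusted p = 0.0471 each). TNFalpha itself, against cells that the labels likewise call untreated, gave means of 2.51 for CD69, 2.74 for IER3 and 2.96 for NFKBIA.

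**Figure D5:**
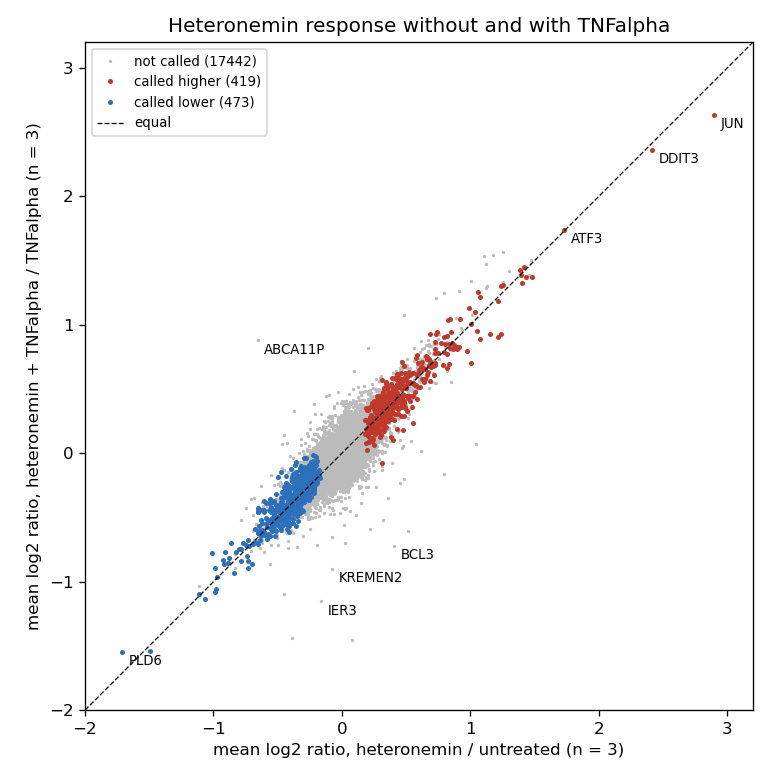
Mean log2 ratio of each gene for heteronemin without TNFalpha (x axis) and with TNFalpha against TNFalpha alone (y axis), n = 3 each. Colours mark genes called without the cytokine, and the dashed line marks equal values. JUN, DDIT3, ATF3 and PLD6 lie near the line, and KREMEN2, BCL3 and IER3 below it.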

How the data were processed

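RNA of K562 cells was compared on 18 two-colour Agilent arrays, and the authors deposited 1 log2 ratio per feature and array. The log2 base, the direction (treated over control) and the turning of dye-exchanged arrays were inferred from the values and labels. The submitters' processing notes name limma. How background was corrected and arrays were normalized, and with which version, is not given in the sources used here. Ratios hold no intensity, so the number of arrays limits the precision and no filter on dim features was possible. Of 45220 features 31332 had 1 gene in the platform annotation, and 93 with several genes and 13795 with none were left out. Symbols of 31291 features were looked up by gene ID, features of a gene were averaged, and 18334 genes were tested.

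The 2 arrays of a replicate were averaged and 9 values per gene entered into 1 linear model (limma 3.58.1, R 4.3.3) that gave each comparison a mean and all of them a shared spread. Tables and figures were made with Python 3.11.15, pandas 2.3.3, numpy 2.4.6 and matplotlib 3.10.9. The fit was tested on simulated data. Alternatives changed the samples in the fit, the prior, the dye handling, the scaling, the weights, the averaging of features and the replicates used. Replicate numbers come from the labels. Deviations of same-numbered replicates correlated at 0.781, 0.626 and 0.622 between the heteronemin comparisons, so the numbers pair these. Between heteronemin and TNFalpha they correlated at −0.21, 0.0306 and −0.0948. Between cotreated cells and TNFalpha the values were −0.326, −0.22 and −0.274. RNA of TNFalpha-treated cells is the treated side of 1 of these comparisons and the control side of the other. Shared RNA would therefore give negative values there, and whether RNA was shared was not tested.

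The comparison, the 70 gene lists and the rule for named genes were chosen with earlier results of these data known. Named were the 20 highest and 20 lowest called genes with 1 sign on all 6 arrays, at most 5 genes per list, by smallest p, a set of pathway genes, the genes with the largest gap between replicate 1 and the others, the called genes with an absolute mean of at least 0.5 and the smallest SD, and those with the smallest p for the difference with and without TNFalpha. Not every such gene is printed.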

Additional observations from a re-analysis of the deposited data

Results flagged for a closer look

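Features with no gene entry in the annotation were in none of the comparisons above. Of these, 8 were at least 2-fold higher and 2 at least 2-fold lower with the same sign on all 6 arrays, against 1 and 0 in the comparison of TNFalpha with untreated cells, whose control has the same label; whether it was the same RNA is not stated. The highest was at 1.59, 1.67 and 0.71 in replicates 1 to 3 (mean 1.33), and the lowest at −2.15, −1.14 and −1.33 (mean −1.54). No gene can be named for them here.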

How the results depend on the processing

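The 892 calls depended on the estimate of the spread. Fitted alone or with a trended, robust prior, 0 genes were called, and fitted with only the cotreated comparison 214. Counts were 1603 with arrays kept apart and a dye term, 2680 with array weights, 1115 from arrays with the treated RNA in Cy5 and 553 with it in Cy3, 1421 of 31332 features and 141 with at least a 1.5-fold change. Without replicates 1, 2 and 3 of the comparison 378, 163 and 464 genes were called, and without those of all comparisons 2540, 2 and 20. A replicate block over the 3 comparisons gave 1102 genes, 803 of them among the 892. A block over only the paired heteronemin comparisons, chosen after the data were seen, gave 3154, which held all 892. Spread shared by same-numbered replicates is taken out in both, so calls with a block do not rest on the full spread between replicates. The difference with and without TNFalpha gave 0 genes with either block, and 0 to 3 with 1 replicate of all comparisons left out. Arrays scaled to equal spread gave 492 higher and 751 lower genes. No called gene changed sign in these fits of both dyes. Between dye orientations, 9 of the 892 changed sign with the treated RNA in Cy5 alone, among them LINC00326 at −0.18, and 2 in Cy3 alone. The causes were not tested. Signal over background is unknown, which limits what small ratios show.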

Other observations

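Smaller lists held single called genes. ID1, a target of BMP signalling that blocks bHLH factors, fell to −0.69 ± 0.37 and the receptor TGFBR1 to −0.31 ± 0.08. HK2, hexokinase, fell to −0.47 ± 0.19, and NR1D2, a repressor of the circadian clock, rose by 0.47 ± 0.15. Of 21 tubulins TUBB2B rose and TUBD1 and TUBB8 fell (14.3% called, against 4.87% of all genes), and none of 22 nucleoporins was called. The calls of TGFBR1 and TUBB8 were lost without any 1 replicate (−0.36, −0.30 and −0.28, and −0.44, −0.43 and −0.40), those of HK2 and NR1D2 without replicate 1 (−0.37 and 0.42) or 2 (−0.46 and 0.44), and those of ID1, TUBB2B and TUBD1 without replicate 2 (−0.56, 0.33 and −0.40) or 3 (−0.60, 0.32 and −0.40). TGFBR1 was not called with the replicate number as a block (adjusted p = 0.0651).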
